A study of Mus musculus with 6 samples.

Results

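Rab GTPases are small membrane-bound switches, each of which marks a compartment of the endocytic or secretory pathway and, when loaded with GTP, recruits the tethers, motors and fusion factors of that compartment. In macrophages they order the passage of phagosomes and endosomes from the surface to the lysosome, the return of receptors to the surface and the release of secretory cargo. Here the genes were followed in 6 bulk RNA-seq libraries of mouse bone marrow-derived macrophages (BMDMs), 3 from Cd74-/- (KO) cells and 3 from Cd74+/+ (Control) cells. CD74, the invariant chain, escorts MHC class II molecules through endosomes and is also a receptor for the cytokine MIF. Members were the rows whose symbol is Rab followed by a number, with an optional letter and an optional further suffix of the form l1. There were 50 such rows among 17217. Rab3il1 matches the pattern but encodes a guanine nucleotide exchange factor, so 49 rows encode Rab GTPases.

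Per the labels' protocols, femoral marrow of 8-week-old mice was cultured with the growth factor M-CSF at 30 ng/mL, and both groups were then exposed for 24 h to lipopolysaccharide (LPS) at 100 ng/mL. The submitted protocol speaks of wild-type mice for every library, so the group of each library was read from its title, which says Control or Knockout. The labels do not say whether a library is 1 animal, 1 culture or a pool, so p-values measure the spread between these libraries, which may be technical. The KO libraries were labelled batch 2 and the Control libraries batch 1, so genotype and batch cannot be told apart in any comparison below. In bulk RNA, fewer cells of a type and less RNA per cell cannot be told apart either.

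Values were in TPM, a transcript abundance scaled by length and library. Reads recovered from the TPM steps came to 50460117 to 57779550 in KO libraries and 35563149 to 51242856 in Control libraries. Cd74 itself was at 65.3, 64.6 and 63.1 TPM in KO libraries 1 to 3, against 632, 593 and 594 TPM in Control libraries 1 to 3, and the KO values of that row, unlike the Control values, were not whole reads at the gene's length. All 49 Rab GTPase rows were whole reads in all 6 libraries, and only Rab3il1 was whole in 0 libraries at its annotated length. KO library 3 and Control library 1 stood further from their group than the other libraries did. The measure was a ratio of variances, that of read counts between 2 libraries over that of counting noise. This ratio was 54.4 and 39.5 between KO library 3 and KO libraries 1 and 2, against 5.24 between KO libraries 1 and 2. It was 16.3 and 13.5 between Control library 1 and Control libraries 2 and 3, against 5.38 between Control libraries 2 and 3.

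Of a list of 22 macrophage markers, 16 had a row, and their summed level was 16649 to 17964 TPM in KO and 12936 to 13640.0 TPM in Control libraries. Of the 15 tested, 8 were higher in KO libraries, 1 was lower and 6 were not called. Most of the difference between the sums was Lyz2, at 8658 ± 778 TPM in KO and 5373 ± 355 TPM in Control libraries (SD, n = 3 each). The lower one was Adgre1, encoding F4/80, at 332 ± 34.0 TPM in KO and 489 ± 4.44 TPM in Control libraries (log2 fold change -0.56, SE 0.076, limma adjusted p = 0.00435). Cd14 and Cd68 were abundant in every library and not called, while C1qa, C1qb, C1qc, Cd163, Maf and Mertk had no row. Of 10 osteoclast markers 9 had a row and 7 were tested, all 7 of them higher in KO libraries. Their sum was 885 to 919 TPM in KO and 486 to 513 TPM in Control libraries, and Itgb3 and Oscar stayed under 1 TPM on average. The neutrophil list summed to 23.8 to 29.3 TPM in KO and 17.6 to 18.1 TPM in Control libraries, with 7 of 10 markers without a row, among them Ly6g, Elane and Mpo. Its 2 tested markers went opposite ways, with S100a8 higher at 19.0 ± 3.34 TPM in KO and 5.01 ± 0.762 TPM in Control libraries and Csf3r lower at 7.39 ± 0.605 TPM in KO and 11.9 ± 1.43 TPM in Control libraries (limma adjusted p = 0.00142 and 0.00732). Sums for mast cell markers, from Hdc alone of 7, were 4.38 to 9.03 TPM in KO and 21.9 to 31.2 TPM in Control libraries. Dendritic, B, T and NK, erythroid and stromal lists each summed to at most 13.9 TPM in any library. The part of these markers in the Rab results was not tested.

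Expression was compared with limma on log2(TPM + 1), over the 13034 rows whose mean TPM reached 1, and a gene was called at a Benjamini-Hochberg adjusted p under 0.05 across all of these rows. Of the 50 members 44 passed the filter. Rab33a and Rab43 passed it through the Control group alone and Rab15 through the KO group alone. Rab39 passed through its KO mean of 1.76 TPM, with a Control mean of 0.956 TPM. The differences of these members were partly set by the filter. Of the 44, 7 were called higher and 9 lower in KO libraries (36.4%), against 28.5% of all tested rows called. The 7 rises were 15.9% of the members, where 18.5% of all rows rose, and the 9 falls were 20.5%, where 10.1% of all rows fell. These counts include Rab15 and Rab33a. At a mean of at least 5 TPM, which left both out, 7 of 38 members were higher and 8 lower. Of the 10131 rows kept at that level, 24.1% were higher and 13.1% lower. After median-of-ratios scaling 4 members were higher and 10 lower, and over all rows 50.8% of called rows were then higher, compared with 64.7% on the deposited scale. With median-of-ratios scaling 13.9% of all rows were higher and 13.5% lower. Without KO library 3, 7 members were higher and 9 lower, where 16.1% and 8.87% of all rows were. Without Control library 1, 4 members were higher and 8 lower, where 10.8% and 5.53% of all rows were. The median log2 difference was -0.031 over the 44 members and 0.039 over all tested rows.

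Calls went in both directions among early and late endosomal genes, and in 1 direction in each of the other classes. Rab31 and Rab5c of the early endosome, Rab7 and Rab7b of the late endosome, Rab11b and Rab15 of the recycling pathway and the secretory Rab27a were higher in KO libraries. Rab5a and Rab22a of the early endosome, the late endosomal and lysosome-related Rab32, the Golgi and ER members Rab33a and Rab18, and Rab20, Rab40c, Rab12 and Rab28 were lower. Groups did not overlap for 25 of the 44 members (56.8%), against 50% of all tested rows. KO libraries lay wholly above for 12 members (27.3%, against 30.2% of all rows) and wholly below for 13 (29.5%, against 19.8%). With any 1 library left out, with other scalings, filters and pseudocount, with a count-based fit and with a replicate block, 9 of the 16 kept their call in every setting that tested them. These were Rab7b, Rab31, Rab27a, Rab33a, Rab32, Rab20, Rab5a, Rab22a and Rab28. Among them Rab33a passed the filter through the Control group alone.

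**Figure D1:**
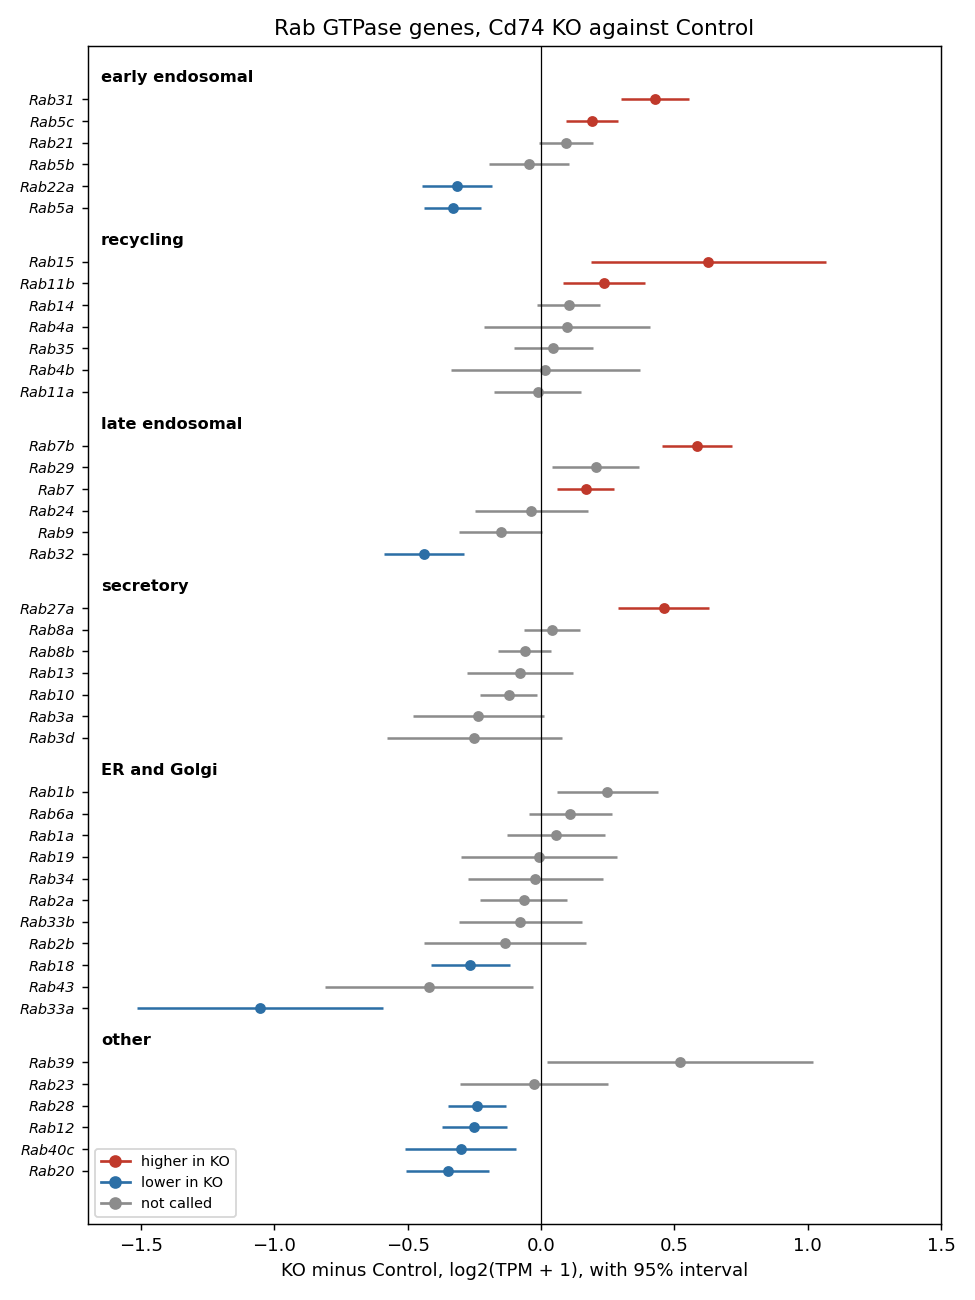
Difference between KO and Control libraries for the 43 tested Rab GTPase genes, on the log2(TPM + 1) scale (points, with 95% intervals from limma), grouped by compartment. Red marks the 7 genes called higher in KO and blue the 9 called lower, with both colours present among early and late endosomal genes.

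The early endosomal pairs that parted are shown by the sequence upstream of their start sites, because these close relatives moved in opposite directions. Each line gives the 250 bases before the annotated start, 5′ to 3′ on the gene's strand, from RefSeq on GRCm38.p6, an earlier build than the GRCm39 named for these data. Capitals mark matches on either strand to any of 7 motifs: the E-box CACGTG, AP-1 TGANTCA, NF-kB (GGGA, any NN, then TTCC), CRE TGACGTCA, ISRE (GAAA, any NN, then GAAA), PU.1 GAGGAAGT and the GC box GGGCGG. Neighbouring GC boxes can overlap and then form 1 longer run.
Rab5a (chr17:53478984-53479233, plus strand, lower in KO): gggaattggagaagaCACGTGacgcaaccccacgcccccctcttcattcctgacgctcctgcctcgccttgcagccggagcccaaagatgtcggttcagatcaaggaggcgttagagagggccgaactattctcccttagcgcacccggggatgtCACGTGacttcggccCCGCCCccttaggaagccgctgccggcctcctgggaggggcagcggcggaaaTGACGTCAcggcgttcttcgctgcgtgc
Rab5c (chr11:100738216-100738465, minus strand, higher in KO): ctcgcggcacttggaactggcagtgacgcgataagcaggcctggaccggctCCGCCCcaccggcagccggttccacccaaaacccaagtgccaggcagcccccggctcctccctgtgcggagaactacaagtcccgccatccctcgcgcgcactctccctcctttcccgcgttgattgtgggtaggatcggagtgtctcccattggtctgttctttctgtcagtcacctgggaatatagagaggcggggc
Rab22a (chr2:173659595-173659844, plus strand, lower in KO): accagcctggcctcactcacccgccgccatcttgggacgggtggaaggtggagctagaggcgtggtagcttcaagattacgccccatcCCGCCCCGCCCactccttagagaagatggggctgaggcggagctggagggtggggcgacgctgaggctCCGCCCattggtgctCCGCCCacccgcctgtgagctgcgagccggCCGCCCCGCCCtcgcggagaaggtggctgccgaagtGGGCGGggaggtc
Rab31 (chr17:65772753-65773002, minus strand, higher in KO): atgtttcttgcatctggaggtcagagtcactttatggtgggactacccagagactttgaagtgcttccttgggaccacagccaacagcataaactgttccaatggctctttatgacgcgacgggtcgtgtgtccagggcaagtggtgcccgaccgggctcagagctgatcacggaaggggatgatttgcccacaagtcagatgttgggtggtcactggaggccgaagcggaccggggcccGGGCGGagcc

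The Rab5a window held 2 E-boxes, starting 235 and 95 bases upstream, a GC box at 80 and a CRE at 28 bases upstream. The Rab5c window held 1 GC box. The Rab22a window held 7 GC boxes and the Rab31 window 1, at 10 bases upstream. Their GC content was 64.0%, 63.2%, 70.0% and 57.6%, against a median of 59.6% over windows of tested genes. Of the 16 called members 14 had a window. E-boxes were found for 1 of 6 that rose (Rab27a, in 1 of its 2 windows) and 2 of 8 that fell (Rab5a and Rab20), against 10.2% of 9126 tested genes with a window. GC boxes were found for 5 of 6 and 6 of 8, against 62.9%. Of 26 uncalled members with a window, 20 had a GC box and 3 an E-box. The CRE occurred for Rab5a, the PU.1 motif for Rab32 and the AP-1 motif for Rab15 (in 1 of its windows), against 3.21%, 3.17% and 5.56% of genes. Among the uncalled members the CRE was found for 0, and the PU.1 and AP-1 motifs for 1 each. The NF-kB and ISRE letters were in 0 of the 14 genes' windows, against 1.51% and 3.40% of genes. A match is a description of the letters and not evidence of binding.

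Among the early endosomal genes, Rab5a, Rab5b and Rab5c encode 3 closely related proteins that drive the fusion of incoming vesicles with early endosomes. Rab5a was at 46.0, 48.4 and 47.1 TPM in KO libraries 1 to 3, against 60.8, 59.0 and 59.0 TPM in Control libraries 1 to 3. Every KO library lay below every Control library (log2 fold change -0.33, SE 0.045, limma adjusted p = 0.00447), a 1.26-fold lower mean. Rab5c, the most abundant of the 3, was at 325, 323 and 329 TPM in KO libraries 1 to 3, against 279, 293 and 283 TPM in Control libraries 1 to 3. All KO values were above the Control values (log2 fold change 0.19, SE 0.042, limma adjusted p = 0.0153), and the call was lost without KO library 2 or Control library 3. Rab5b was at 87.6, 85.9 and 76.3 TPM in KO libraries 1 to 3, against 89.3, 84.3 and 84.0 TPM in Control libraries 1 to 3. Its groups overlapped and it was not called (log2 difference -0.046, 95% interval -0.20 to 0.10, limma adjusted p = 0.621). Of the 50-base stretches of its transcript 13% recur in other genes, chiefly Gm13991.

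The composition of the Rab5 trio within a library does not depend on how libraries are scaled. Of the summed Rab5 TPM, Rab5c made up 70.9%, 70.7% and 72.8% in KO libraries 1 to 3, against 65.1%, 67.2% and 66.4% in Control libraries 1 to 3. Rab5a made up 10.3 ± 0.277% in KO and 13.8 ± 0.320% in Control libraries (SD, n = 3 each). Rab5b, which was not called, made up 18.2 ± 1.21% in KO and 19.9 ± 0.771% in Control libraries. KO libraries held a larger share of Rab5c and smaller ones of Rab5a and Rab5b, without overlap between the groups. Shares within a set are tied, so a larger share of Rab5c lowers the others. The shares within the Rab1 and Rab8 pairs also did not overlap, although none of those genes was called.

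Rab22a and Rab31 are close relatives of Rab5. Rab22a acts on early endosomes in the return of cargo taken up without clathrin, and Rab31 acts between the trans-Golgi network and endosomes. Rab31 was at 199.6, 202 and 213 TPM in KO libraries 1 to 3, against 148, 161 and 147 TPM in Control libraries 1 to 3. Its lowest KO value was above its highest Control value (log2 fold change 0.43, SE 0.054, limma adjusted p = 0.00377), a 1.35-fold higher mean. Rab22a was at 27.2, 28.8 and 26.9 TPM in KO libraries 1 to 3, against 36.2, 34.7 and 33.0 TPM in Control libraries 1 to 3. All KO libraries were below the Control libraries (log2 fold change -0.32, SE 0.057, limma adjusted p = 0.00900). Of the summed TPM of this pair, Rab31 held 88.0%, 87.5% and 88.8% in KO libraries 1 to 3, against 80.4%, 82.3% and 81.7% in Control libraries 1 to 3. Rab21, which serves the uptake of integrins, was at 79.6 to 81.2 TPM in KO and 73.4 to 76.8 TPM in Control libraries without overlap, and was not called (0.093, 95% interval -0.0078 to 0.19, limma adjusted p = 0.143).

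**Figure D2:**
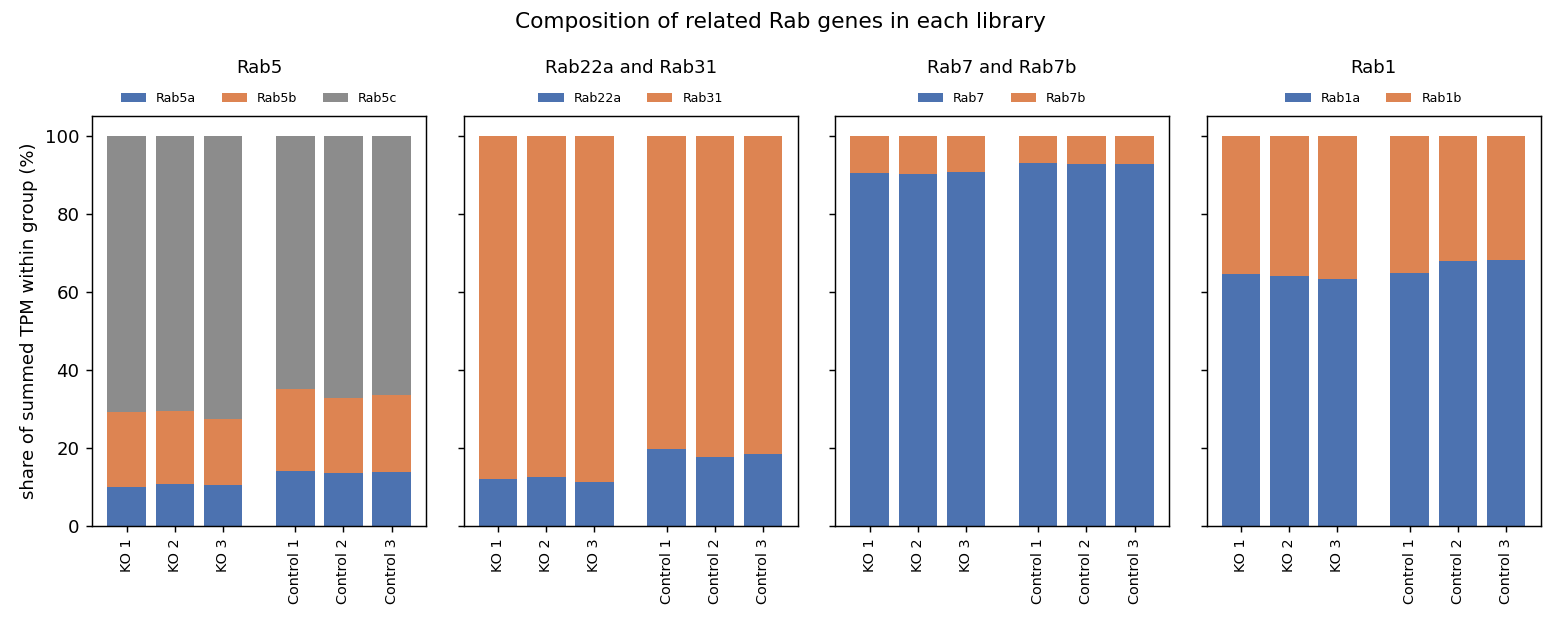
Share of the summed TPM held by each gene (vertical axis, %) within the Rab5, Rab22a and Rab31, Rab7 and Rab7b, and Rab1 sets, for KO libraries 1 to 3 and Control libraries 1 to 3. Rab5c takes up 70.7% to 72.8% of the Rab5 transcripts in KO libraries and 65.1% to 67.2% in Control libraries, and Rab31 and Rab7b also take larger shares in KO libraries.

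Among late endosomal and lysosomal genes, Rab7 directs the fusion of late endosomes and phagosomes with lysosomes and had the highest mean level of any member. Rab7 was at 364, 372 and 377 TPM in KO libraries 1 to 3, against 322, 344 and 325 TPM in Control libraries 1 to 3. The groups did not overlap (log2 fold change 0.17, SE 0.045, limma adjusted p = 0.0319), but the difference was small and the call was lost under both other scalings and without KO library 1 or 2 or Control library 1 or 3. Of the 50-base stretches of its transcript 14.45% recur elsewhere, chiefly in the pseudogene Rab7-ps1. Rab7b, a myeloid relative that in mouse macrophages carries the LPS receptor TLR4 to lysosomes for degradation, was at 38.3, 40.8 and 38.4 TPM in KO libraries 1 to 3, against 24.5, 26.9 and 25.9 TPM in Control libraries 1 to 3. The KO libraries were all above the Control libraries, with a 1.52-fold higher mean (log2 fold change 0.59, SE 0.056, limma adjusted p = 0.00215). Its adjusted p ranged from 0.000361 to 0.0161 over the 13 alternatives. Of the summed TPM of Rab7 and Rab7b, Rab7b held 9.55 ± 0.314% in KO and 7.23 ± 0.171% in Control libraries (SD, n = 3 each).

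Rab32, which serves lysosome-related organelles and the delivery of antimicrobial factors to bacterial vacuoles, went the other way. Rab32 was at 50.9, 51.0 and 56.4 TPM in KO libraries 1 to 3, against 67.8, 75.3 and 72.8 TPM in Control libraries 1 to 3. Every KO value was below every Control value, a 1.36-fold lower mean (log2 fold change -0.44, SE 0.063, limma adjusted p = 0.00509). Rab29, a relative of Rab32 that brings the kinase LRRK2 to membranes, was at 44.6 to 52.5 TPM in KO and 41.3 to 43.4 TPM in Control libraries and was not called (0.20, 95% interval 0.042 to 0.37, limma adjusted p = 0.0640). It was called without KO library 3 and with a replicate block. Rab9, which returns mannose 6-phosphate receptors to the Golgi, was at 40.0 to 46.1 TPM in KO and 46.1 to 50.4 TPM in Control libraries, nearly touching, and was not called (-0.15, 95% interval -0.31 to 0.0045, limma adjusted p = 0.127). Rab24, linked to autophagy, was at 13.1 to 15.7 TPM in KO and 13.8 to 16.2 TPM in Control libraries with overlapping groups, and 62.4% of its exons lie opposite the gene Prelid1, so its reads are uncertain if strand was not kept.

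Among recycling genes, Rab11a and Rab11b govern the slow return of receptors through the recycling endosome. Rab11b was at 22.9, 23.0 and 25.3 TPM in KO libraries 1 to 3, against 20.6, 20.6 and 18.8 TPM in Control libraries 1 to 3. The groups did not overlap (log2 fold change 0.24, SE 0.065, limma adjusted p = 0.0345), yet the call was lost when any 1 library was left out, under both other scalings and with a replicate block. Rab11a was at 74.0, 77.7 and 67.7 TPM in KO libraries 1 to 3, against 69.0, 74.5 and 77.9 TPM in Control libraries 1 to 3. Its groups overlapped and it was not called (-0.013, 95% interval -0.18 to 0.15, limma adjusted p = 0.901). Rab15, which slows traffic through recycling endosomes, was near the filter at 1.52, 1.38 and 2.37 TPM in KO libraries 1 to 3, against 0.842, 0.594 and 0.873 TPM in Control libraries 1 to 3. All KO values were above the Control values (log2 fold change 0.63, SE 0.19, limma adjusted p = 0.0435), from 44 to 184 reads a library, and the call was lost when any 1 library was left out and under median-of-ratios scaling. The size also depended on the pseudocount, with a log2 fold change of 1.07 at a pseudocount of 0.1 and 1.15 in the count-based fit, and a KO mean 2.29 times the Control mean.

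The other recycling genes were not called. Rab14, which works between Golgi and endosomes, was at 53.4 to 55.1 TPM in KO and 48.5 to 52.8 TPM in Control libraries without overlap (0.10, 95% interval -0.014 to 0.22, limma adjusted p = 0.158). Rab35, of the rapid route back to the surface, was at 88.2 to 103 TPM in KO and 90.2 to 95.1 TPM in Control libraries, and Rab4a, also of a rapid route, at 4.84 to 6.78 TPM in KO and 5.18 to 5.97 TPM in Control libraries, both with overlapping groups. Rab4b was at 1.06 to 1.30 TPM in KO and 1.01 to 1.34 TPM in Control libraries, and 93.05% of its transcript's 50-base stretches also occur in other genes, chiefly the overlapping Gm21983, so its level is uncertain. Rab25, an epithelial member, had 3 to 14 reads a library and was not tested.

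Among secretory genes 1 of 7 tested was called, where 28.5% of all tested rows were. Rab27a, which docks secretory granules and multivesicular endosomes at the surface, was at 9.44, 9.69 and 9.64 TPM in KO libraries 1 to 3, against 6.55, 6.97 and 6.59 TPM in Control libraries 1 to 3. The KO libraries were all above the Control libraries, with a 1.43-fold higher mean (log2 fold change 0.46, SE 0.073, limma adjusted p = 0.00633), on 288 to 656 reads a library. The more abundant exocytic members were not called. Rab8b, which acts in transport from the Golgi and recycling endosomes to the surface, was at 177, 179 and 178 TPM in KO libraries 1 to 3, against 180.4, 191 and 187 TPM in Control libraries 1 to 3. Its KO values were all below the Control values by a narrow margin, and it was not called (-0.062, 95% interval -0.16 to 0.038, limma adjusted p = 0.307). Rab8a was at 73.6 to 76.1 TPM in KO and 70.4 to 74.6 TPM in Control libraries and was not called (0.041, 95% interval -0.065 to 0.15, limma adjusted p = 0.529), and its direction flipped under both other scalings. Rab10, which in macrophages carries TLR4 to the surface, was at 113, 111 and 105 TPM in KO libraries 1 to 3, against 119, 119.6 and 120.4 TPM in Control libraries 1 to 3. All KO values were below the Control values (-0.12, 95% interval -0.23 to -0.014, limma adjusted p = 0.0862), and Rab10 was called lower under both other scalings and in the count-based fit. On the same log2 scale of differences, Rab13 (-0.078), Rab3a (-0.24) and Rab3d (-0.25), the last 2 serving regulated exocytosis, were not called and overlapped. Rab37 had 4 to 28 reads a library and was not tested.

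**Figure D3:**
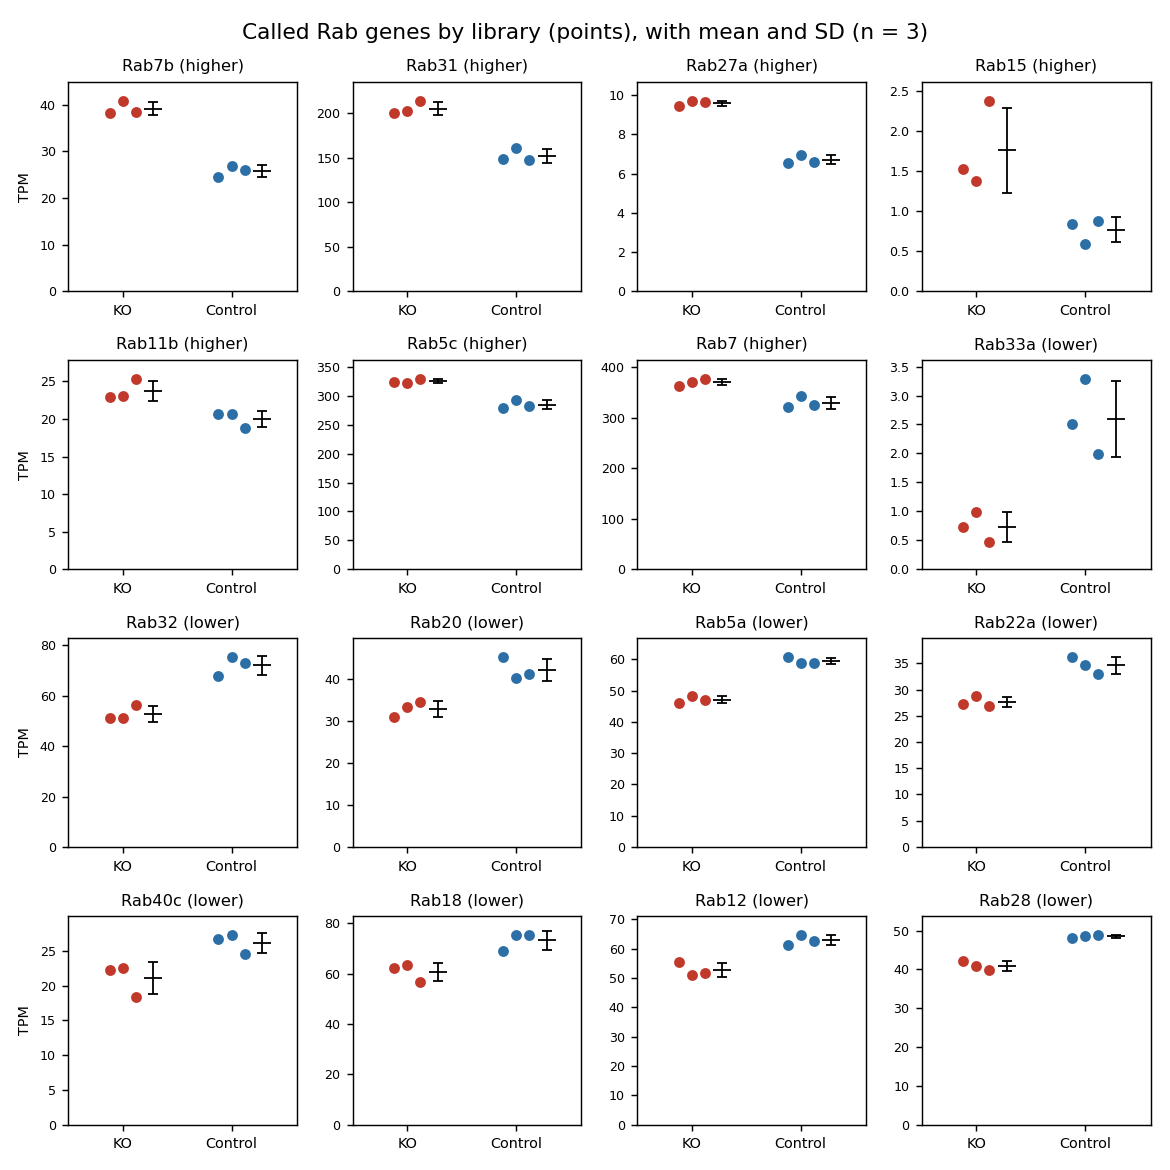
TPM of the 16 called Rab genes in each library (points, KO left of Control), with the group mean and SD (n = 3 each) beside them and axes from 0. In each panel the 3 KO points lie wholly above (first 7 panels) or wholly below (the other 9 panels) the 3 Control points. The genes were chosen by calls on these same libraries, and groups also did not overlap for 50% of all tested rows.

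In the biosynthetic pathway from endoplasmic reticulum (ER) to Golgi, 0 of 11 tested genes were higher and 2 were lower, where 28.5% of all tested rows were called in either direction. The 2 include Rab33a, which passed the filter through the Control group alone. Rab18, found on lipid droplets and the ER, was at 62.1, 63.4 and 56.6 TPM in KO libraries 1 to 3, against 68.8, 75.3 and 75.2 TPM in Control libraries 1 to 3. The KO libraries lay below the Control libraries (log2 fold change -0.26, SE 0.063, limma adjusted p = 0.0211), and the call was lost without Control library 2 or 3. Rab33a, a Golgi member, was low throughout at 0.723, 0.991 and 0.462 TPM in KO libraries 1 to 3, against 2.52, 3.28 and 1.99 TPM in Control libraries 1 to 3. Its KO values were all below the Control values (log2 fold change -1.05, SE 0.20, limma adjusted p = 0.0101), on 9 to 61 reads a library. At such levels the pseudocount of 1 shrinks the difference: the log2 fold change was -1.73 with a pseudocount of 0.1 and -1.88 in the count-based fit, and the Control mean was 3.58 times the KO mean.

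The abundant carriers of this route were not called. Rab1a, which opens transport from ER to Golgi, was at 257, 259 and 299 TPM in KO libraries 1 to 3, against 241, 268 and 274 TPM in Control libraries 1 to 3. Its groups overlapped (0.056, 95% interval -0.13 to 0.24, limma adjusted p = 0.620). Its paralogue Rab1b was at 142, 145 and 174 TPM in KO libraries 1 to 3, against 131, 126 and 129 TPM in Control libraries 1 to 3. The KO values were all above the Control values and just missed the threshold (0.25, 95% interval 0.060 to 0.44, limma adjusted p = 0.0557), and Rab1b was called in 5 of the 13 alternatives. Rab2a, which acts between Golgi and ER and in lysosome delivery, was at 167, 185 and 201 TPM in KO libraries 1 to 3, against 189.7, 192 and 195 TPM in Control libraries 1 to 3. KO library 3 was the highest of all and KO library 1 the lowest, so the groups overlapped (-0.065, 95% interval -0.23 to 0.10, limma adjusted p = 0.510). Rab6a, of traffic within the Golgi, was at 132 to 139 TPM in KO and 117 to 138 TPM in Control libraries with overlap (0.11, 95% interval -0.047 to 0.27, limma adjusted p = 0.252). With log2 differences near or below 0, Rab34 (-0.021), Rab33b (-0.077), Rab19 (-0.0089) and Rab2b (-0.14) were not called and overlapped, and 64.0% of the Rab2b exons lie opposite other genes. Rab43 was at 0.646 to 0.947 TPM in KO and 1.23 to 1.77 TPM in Control libraries and was not called (-0.42, 95% interval -0.81 to -0.030, limma adjusted p = 0.0974), with 90.3% of its 50-base stretches shared with other genes, chiefly Gm45140. Rab30 had 10 to 26 reads a library and was not tested.

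Of 6 tested members outside these classes, 4 were lower and 0 higher, where 10.1% of all tested rows were lower and 18.5% higher. Rab20, which promotes phagosome maturation in macrophages, was at 30.8, 33.1 and 34.4 TPM in KO libraries 1 to 3, against 45.1, 40.1 and 41.0 TPM in Control libraries 1 to 3. All KO libraries were below the Control libraries (log2 fold change -0.35, SE 0.067, limma adjusted p = 0.0106), a 1.28-fold lower mean, and 25.6% of its exons lie opposite E230013L22Rik. Rab12, which sends transferrin receptor from recycling endosomes to lysosomes, was at 55.4, 51.1 and 51.7 TPM in KO libraries 1 to 3, against 61.4, 64.7 and 62.6 TPM in Control libraries 1 to 3. Its groups did not overlap (log2 fold change -0.25, SE 0.051, limma adjusted p = 0.0133), and the call was lost without KO library 2. Rab28, known for its role at cilia, was at 42.2, 40.9 and 39.7 TPM in KO libraries 1 to 3, against 48.1, 48.5 and 48.9 TPM in Control libraries 1 to 3. The fall was seen in every KO library (log2 fold change -0.24, SE 0.046, limma adjusted p = 0.0112). Rab40c, whose protein carries a SOCS box that binds ubiquitin ligase subunits, was at 22.3, 22.6 and 18.4 TPM in KO libraries 1 to 3, against 26.7, 27.3 and 24.5 TPM in Control libraries 1 to 3. The groups did not overlap (log2 fold change -0.30, SE 0.089, limma adjusted p = 0.0416), but the call was lost with no filter and without KO library 2 or any 1 Control library.

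Rab23, which restrains Hedgehog signalling, was at 6.76 to 9.46 TPM in KO and 7.95 to 8.68 TPM in Control libraries and was not called. Rab39 was at 1.46 to 1.96 TPM in KO and 0.446 to 1.29 TPM in Control libraries on 15 to 99 reads, without overlap, and was not called (0.52, 95% interval 0.021 to 1.02, limma adjusted p = 0.106). Its Control mean of 0.956 TPM was below the filter, so this difference was partly set by it. Rab39b, Rab40b and Rab42 had at most 13 reads in any library and were not tested. The exchange factor gene Rab3il1 was at 19.4 to 21.3 TPM in KO and 20.3 to 24.5 TPM in Control libraries and was not called (-0.11, 95% interval -0.30 to 0.085, limma adjusted p = 0.359).

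Taking each class as a sum of TPM, the early endosomal genes came to 769 ± 4.69 TPM in KO and 693 ± 13.5 TPM in Control libraries (SD, n = 3 each) and did not overlap. Late endosomal genes summed to 569.8 ± 5.10 TPM in KO and 534 ± 14.3 TPM in Control libraries, also without overlap, although the groups overlapped after upper-quartile scaling. Secretory genes summed to 404 ± 8.37 TPM in KO and 421 ± 1.51 TPM in Control libraries, with every KO library below every Control library. Recycling genes summed to 256 ± 6.96 TPM in KO and 245 ± 6.25 TPM in Control libraries and overlapped, as did ER and Golgi genes, at 875 ± 46.8 TPM in KO and 855 ± 27.4 TPM in Control libraries. The remaining genes summed to 158 ± 3.26 TPM in KO and 189.7 ± 1.51 TPM in Control libraries without overlap. The sums of early endosomal, secretory and remaining genes kept these orders under both other scalings. Most of the early endosomal sum came from Rab5c and Rab31, and most of the late endosomal sum from Rab7. Most of the secretory sum came from Rab8b (178 TPM in KO, 186 TPM in Control) and Rab10 (110 TPM in KO, 120 TPM in Control). Neither of these was called, and the only called secretory gene, Rab27a, was higher in KO libraries. Of the 7 tested secretory genes, 2 had a positive and 5 a negative log2 difference.

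As a share of all Rab GTPase transcripts in a library, early endosomal genes held 25.4 ± 0.250% in KO and 23.6 ± 0.308% in Control libraries. Late endosomal genes held 18.8 ± 0.275% in KO and 18.2 ± 0.187% in Control libraries. The secretory share was 13.3 ± 0.449% in KO and 14.3 ± 0.223% in Control libraries. These 3 shares did not overlap between groups, and the recycling share, at 8.45 ± 0.154% in KO and 8.33 ± 0.0614% in Control libraries, did. The genes outside the named classes held 5.21 ± 0.186% in KO and 6.46 ± 0.140% in Control libraries, without overlap. By gene, the median log2 difference was 0.024 for 6 early endosomal, 0.098 for 7 recycling, 0.065 for 6 late endosomal and -0.078 for 7 secretory genes, against 0.039 for all tested rows. Of these 26 genes 7 were higher and 3 lower, where 18.5% of all tested rows were higher and 10.1% lower. The 7 include Rab15, which passed the filter through the KO group alone. The difference between classes was not tested.

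**Figure D4:**
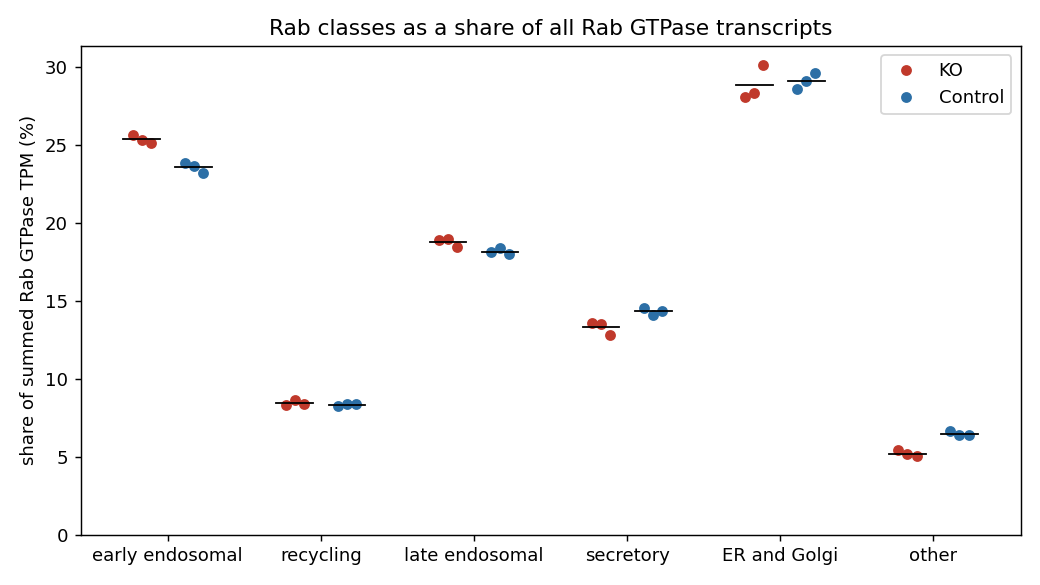
Share of the summed TPM of all 49 Rab GTPase genes (vertical axis, %) held by each class in each library (points, KO left of Control, bars at the mean of 3). Early endosomal points are higher in KO libraries (25.1% to 25.6%) than in Control libraries (23.2% to 23.8%), and secretory points are lower (12.8% to 13.6% against 14.1% to 14.6%). The only called secretory gene, Rab27a, was higher in KO libraries.

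Genes that load, switch and read Rab proteins were taken from lists, each counted against the 28.5% of all tested rows called. By direction, 18.5% of all tested rows were higher and 10.1% lower. Of 8 genes of the membrane cycle, which prenylate Rab proteins and move them on and off membranes, 0 rose and 1 fell. The fall was in Rabac1, encoding the prenylated Rab acceptor PRA1, at 137 ± 13.6 TPM in KO and 198 ± 12.8 TPM in Control libraries (SD, n = 3 each, log2 fold change -0.53, SE 0.083, limma adjusted p = 0.00605). The median of the list was -0.047.

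Of 38 tested exchange factor (GEF) genes, which switch Rab proteins on, 4 rose and 6 fell (median -0.023). Als2cl, a relative of the Rab5 exchange factor alsin, was at 8.19 ± 1.20 TPM in KO and 14.7 ± 0.703 TPM in Control libraries (log2 fold change -0.78, SE 0.11, limma adjusted p = 0.00434). Dennd4a, of the DENN family, was at 24.9 ± 4.11 TPM in KO and 37.0 ± 0.666 TPM in Control libraries (log2 fold change -0.57, SE 0.11, limma adjusted p = 0.0120). Dennd6a (log2 fold change 0.24) and Ankrd27, which acts on Rab21 and binds Rab32 (0.23), were the largest rises, and both calls were lost in 8 or more of 13 alternatives. Of 34 tested genes listed as GTPase-activating (GAP), a class that switches Rab proteins off, 4 rose and 2 fell (median -0.067). A place in this list does not show that the protein has that activity. Tbc1d14, which binds Rab11 and affects autophagosome formation, was at 28.4 ± 2.34 TPM in KO and 15.5 ± 1.49 TPM in Control libraries (log2 fold change 0.84, SE 0.089, limma adjusted p = 0.00264), and Tbc1d2b, a relative of the Rab7 GAP TBC1D2, at 21.0 ± 0.463 TPM in KO and 14.6 ± 0.332 TPM in Control libraries (log2 fold change 0.50, SE 0.054, limma adjusted p = 0.00265). The falls were in Evi5l (-0.45, lost without any 1 Control library) and Tbc1d7, a subunit of the TSC complex (-0.25, lost without KO library 1 or 2 or any 1 Control library).

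Of 27 early endosomal and recycling effector genes 2 rose and 4 fell (median -0.038). Ehd4, an ATPase of endosome tubulation, was at 242 ± 2.82 TPM in KO and 165 ± 9.17 TPM in Control libraries (log2 fold change 0.55, SE 0.052, limma adjusted p = 0.00204). Its relative Ehd1, which drives exit from the recycling endosome, was at 292 ± 13.6 TPM in KO and 372 ± 28.9 TPM in Control libraries (log2 fold change -0.34, SE 0.067, limma adjusted p = 0.0116). The pair moved in opposite directions. Rab11fip1, encoding a Rab11 effector, fell (log2 fold change -0.41, SE 0.064, limma adjusted p = 0.00582), and Rufy1, encoding a Rab4 effector, rose (0.21), a call lost in 11 of 13 alternatives. Eea1, the tether that Rab5 recruits to early endosomes and named here because of its values, was at 113, 107 and 99.0 TPM in KO libraries 1 to 3, against 132, 133 and 137 TPM in Control libraries 1 to 3. Its KO values were all below the Control values (log2 fold change -0.33, SE 0.058, limma adjusted p = 0.00813).

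Of 21 late endosomal and lysosomal effector genes 1 rose and 3 fell (median -0.036). Vipas39, encoding a partner of VPS33B in endosome maturation, fell (log2 fold change -0.51, SE 0.070, limma adjusted p = 0.00448), as did Rubcn, which encodes the Rab7-binding autophagy inhibitor Rubicon (log2 fold change -0.32, SE 0.055, limma adjusted p = 0.00797). Vps33a, of the HOPS tether that Rab7 recruits, rose (log2 fold change 0.28, SE 0.071, limma adjusted p = 0.0251), and that call was lost without KO library 2 or Control library 1 or 3. Of 12 secretory effector genes 1 rose and 1 fell (median 0.0059). Myo5a, the motor that Rab27a engages through its effectors, was at 80.4 ± 4.45 TPM in KO and 66.0 ± 4.64 TPM in Control libraries (log2 fold change 0.28, SE 0.068, limma adjusted p = 0.0223), a call lost without Control library 1 or 3. Mlph, the linker best known for that link in melanocytes, had no row. Exoc6b, of the exocyst tether, fell (-0.32), a call lost in 6 of 13 alternatives.

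Of 31 SNARE and SNARE-handling genes, whose products carry out membrane fusion, 3 rose and 6 fell (median -0.12). Nsf, the ATPase that takes SNARE complexes apart, was at 59.5 ± 1.55 TPM in KO and 46.2 ± 0.400 TPM in Control libraries (log2 fold change 0.36, SE 0.045, limma adjusted p = 0.00367). Vamp8, of late endosomal and granule fusion, rose (log2 fold change 0.31, SE 0.070, limma adjusted p = 0.0173), a call lost without Control library 1 or 3. Napb, encoding a SNAP adaptor of NSF, was at 17.9 ± 2.97 TPM in KO and 28.3 ± 1.20 TPM in Control libraries (log2 fold change -0.65, SE 0.11, limma adjusted p = 0.00881), and Stx5a, the ER to Golgi syntaxin, at 30.6 ± 3.32 TPM in KO and 45.3 ± 2.79 TPM in Control libraries (log2 fold change -0.55, SE 0.088, limma adjusted p = 0.00634). In this list 9 of 31 genes were called, close to the share over all rows only when both directions are pooled. By direction, 18.5% of all tested rows rose and 10.1% fell. KO libraries lay wholly below Control libraries for 15 of the 31 genes and wholly above for 4. Over all tested rows these shares were 19.8% and 30.2%. The difference from all rows was not tested.

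**Figure D5:**
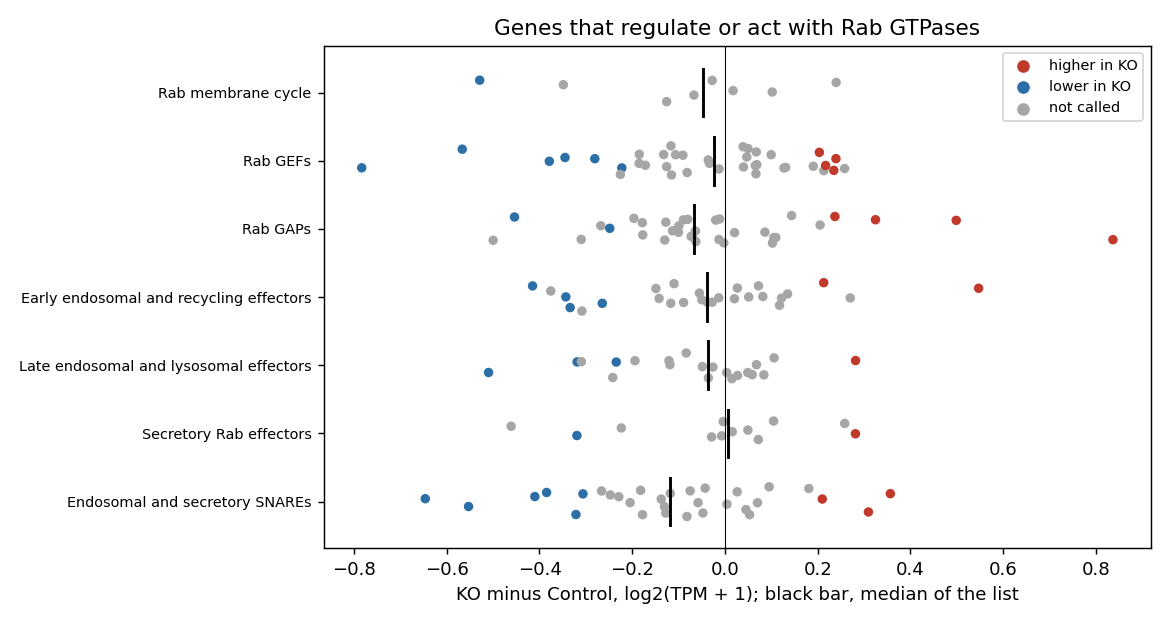
Difference between KO and Control libraries on the log2(TPM + 1) scale for tested genes of 7 lists that regulate or act with Rab GTPases (points, red called higher in KO, blue called lower, grey not called). Black bars mark list medians, which lie between -0.12 for SNARE genes and 0.0059 for secretory effectors.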

How the data were processed

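The deposited table holds TPM for 6 libraries under gene symbols; no unit is named in its header, and TPM was inferred because each deposited column sums to 991721 to 998572. The build GRCm39 and the tool DESeq2 appear, per the submitters' processing notes, with no stated role; aligner, counter and annotation are not given in the sources used here. There were 0 unmapped columns of per-sample values. Reads were recovered as TPM times the GENCODE M21 union exon length divided by each library's step (0.0558 to 0.0883 TPM per read in 1 kb); 16498 rows (95.8%) were whole within 0.02 read in all 6 libraries. Depth limits the rare members to few reads; read counts cover counting error only.

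The main test was limma 3.58.1 in R 4.3.3 (trend and robust eBayes, two-sided) on log2(TPM + 1), rows of mean TPM under 1 left out, with Benjamini-Hochberg adjustment over 13034 rows. The limma fit was also run on simulated reads with a fixed spread and with neither a batch nor an outlying library. That run therefore says nothing about the batch or the uneven libraries of these data. Alternatives were a pseudocount of 0.1, no filter or a mean of at least 5 TPM, median-of-ratios and upper-quartile scaling, limma-voom on recovered reads, a replicate block and each library left out. Shares and class sums are given as descriptions and were not tested; an exact permutation test of 3 against 3 libraries could not go below p = 0.1. Shared 50-base stretches and exon overlaps came from GENCODE M21 and promoters from RefSeq by symbol (44 of 50 rows matched).

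Members, classes and lists were chosen with earlier results of these data known. Values in every library are given for called members, the 6 most abundant members and all Rab5, Rab7, Rab11 and Rab27 members; Rab10 and Rab1b were added after their values were seen. Of each companion list at most the 2 largest called changes per direction are named, except Eea1.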

Additional observations from a re-analysis of the deposited data

How the results depend on the processing

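Over 13 alternatives, 7 called higher and 9 called lower among the Rab rows became 3 to 7 and 7 to 9 with 1 library left out, while calls over all rows ran from 1313 to 2096 higher and from 669 to 1219 lower. Median-of-ratios scaling gave 4 Rab rows higher and upper-quartile scaling 5, with 10 lower under each; over all rows they gave 1814 and 1872 higher with 1756 and 1706 lower. The median difference of all rows was -0.00023 and -0.0077 under these scalings and 0.039 on the deposited scale. Limma-voom on recovered reads gave 8 higher and 11 lower, where 17.9% of 12559 rows were higher and 13.8% lower. The smallest counts came without KO library 2 (3 and 7) and without Control library 3 (3 and 7). Over all rows 12.2% were higher and 6.66% lower without KO library 2. Without Control library 3 these shares were 10.1% and 5.13%. The cause was not tested. Among single Rab rows, 32 of the alternative values lost a call and 11 gained one, and 522 stayed called or stayed uncalled. 0 called rows changed sign, but several uncalled rows, Rab4b and Rab8a among them, changed sign in some alternatives. Low rows, Rab33a and Rab15 among them, have no value at a mean of at least 5 TPM, and Rab3il1 none in limma-voom.

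Replicate numbers are shared between groups in the labels, but nothing states that they pair samples: deviations of same-numbered libraries correlated at 0.134, -0.0766 and 0.0315 over 13034 rows. With a replicate block 8 Rab rows were higher and 9 lower, and 2331 and 1380 over all rows.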
